A study of Mus musculus with 6 samples.

Results

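The genes described here are 35 genes of the ATF4 amino acid response, 18 of them cytosolic aminoacyl-tRNA synthetases, in cultured 4T1 cells with and without ATM. They were taken by gene symbol from the 13405 genes listed in each of 6 expression files, and all 35 were found once in every file and passed the filter on low values. 4T1 is a mouse mammary carcinoma line of the Balb/c strain, and the RNA came from cells grown in vitro. Of the 6 libraries, 3 were from cells carrying a vector control (controls 1 to 3) and 3 from ATM KO cells, in which Atm, the gene of a kinase that responds to DNA double-strand breaks, was knocked out. The labels give no treatment or age, do not say how the knockout was made or whether it is 1 clone. Nor do they say if replicates were grown apart, and the p-values therefore reflect only library-to-library variation, part of which may be technical.

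ATF4 is a transcription factor whose translation increases when the initiation factor eIF2 is phosphorylated by one of a set of kinases, among them GCN2, which senses uncharged tRNA, and PERK, which senses unfolded protein in the endoplasmic reticulum. It pairs with C/EBP family partners on composite elements and induces amino acid transporters, enzymes that make serine, glycine, asparagine and proline, feedback regulators such as Trib3, and the synthetases that join amino acids to tRNAs in the cytosol. Tumour cells are known to use the serine and mitochondrial folate part of this programme for nucleotide synthesis. Values below are normalized read counts, the deposited gene read counts after division by 1 factor per library, and fold changes are differences of log2(value + 1), ATM KO minus control, each given with an SE.

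Some member promoters carry the core of the ATF4 and C/EBP composite element, and the stretches that hold it are shown because the same letters stand in front of members with different patterns across the libraries. The motif TGATGNAA was searched on both strands (TTNCATCA on the other) from 250 bases before to 50 after each RefSeq start on GRCm38.p6, and no other motif was searched. Promoters were matched for 26 of the 35 members, and 10 of these (38.5%) hold the motif, against 4.51% of the 27025 genes with a promoter in the same table. The shares were 5 of 10 synthetases (Aars, Gars, Iars, Tars and Yars) and 5 of 16 other members (Asns, Chac1, Nupr1, Pycr1 and Trib3). No promoter was matched for Cth and for the synthetases Cars, Hars, Lars, Mars, Nars, Rars, Vars and Wars. The synthetase share thus covers only 10 of the 18. The stretches below end at or before the start site, run 5′ to 3′ on the strand of the gene, and show the motif in capitals.
Asns: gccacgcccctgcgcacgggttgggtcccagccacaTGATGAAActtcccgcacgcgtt
Chac1: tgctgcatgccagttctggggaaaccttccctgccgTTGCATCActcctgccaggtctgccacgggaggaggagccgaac
Nupr1: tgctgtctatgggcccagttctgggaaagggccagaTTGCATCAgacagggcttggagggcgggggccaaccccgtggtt
Pycr1: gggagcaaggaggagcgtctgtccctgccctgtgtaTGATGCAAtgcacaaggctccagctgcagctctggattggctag
Aars: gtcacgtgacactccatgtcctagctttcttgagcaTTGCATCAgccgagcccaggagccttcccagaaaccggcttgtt
Tars: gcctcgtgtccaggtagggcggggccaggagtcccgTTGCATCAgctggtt
Gars: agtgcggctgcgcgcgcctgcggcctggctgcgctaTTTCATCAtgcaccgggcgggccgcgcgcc

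These stretches lie at chr6:7693210-7693268 on the minus strand for Asns, chr2:119351013-119351092 on the plus strand for Chac1, chr7:126625537-126625616 on the minus strand for Nupr1, chr11:120643808-120643887 on the minus strand for Pycr1, chr8:111033694-111033773 on the plus strand for Aars, chr15:11399659-11399709 on the minus strand for Tars and chr6:55037935-55038000 on the plus strand for Gars. The motif begins 23 bases before the start in Asns, 193 in Chac1, 110 in Nupr1, 103 in Pycr1, 112 in Aars, 15 in Tars and 30 in Gars. In Iars, Yars and Trib3 it lies just after the start, and Aars holds a second match there. A match is a description of letters and not a bound site, and no match says only that the letters are absent from the window. The median log2 fold change in ATM KO cells was -0.33 over the 10 members with a match and -0.31 over the 16 without. In control 1, the median log2 deviation from the mean of each gene over the 6 libraries was 0.82 with a match and 0.41 without. It was 0.93 and 0.18 among synthetases, and 0.48 and 0.64, the other way, among other members. These differences were not tested.

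The main order of the 6 libraries did not follow the groups. The first principal component held 59.4% of the variance over 12149 tested genes and placed control 1 (86.2) and ATM KO 2 (41.5) at one end and ATM KO 3 (-50.7) and controls 2 and 3 (-36.9 and -37.0) at the other. Controls 2 and 3 were far closer to each other than other pairs within a group (chi-square per gene of 16.3, against 77.5 to 340 elsewhere). Reads per library ranged from 22494919 to 32341508, and the least read member had 127 reads in its lowest library, so that counting error was small beside the spread between libraries. Atm mRNA was not lower in the libraries labelled ATM KO (1519 to 1978 in controls, 1591 to 2220 in ATM KO; log2 fold change 0.17, SE 0.19; limma adjusted p = 0.999). The labels do not say which bases of Atm were altered, so the mRNA level does not check the knockout. All 5 epithelial markers looked for (Epcam, Cdh1, Krt8, Krt18, Krt19) were present, while 3 of 4 leukocyte markers, Ptprc, Cd3e and Itgam, were not among the genes given. The fourth, Cd68, a macrophage marker, was at 301 in control 1 and at 1001 and 1080.1 in controls 2 and 3, against 806, 264 and 227 in ATM KO 1 to 3. The fibroblast marker Pdgfra was lowest in control 1 (129) and highest in ATM KO 3 (712). A second, Col1a1, was also lowest in control 1 (9.7) but highest in control 3 (63.0), and Pdgfrb was not among the genes given. Of the endothelial markers Pecam1, Cdh5 and Kdr, only Cdh5 was given, at 0 to 11.7. The summed epithelial level was 56779 to 96187 in controls and 67970 to 111172 in ATM KO cells. It was lowest in control 1, which was the highest library in 27 of 35 members. Next lowest was ATM KO 2, the highest ATM KO library in 25 of 35. Among the epithelial markers, Cdh1 varied little between libraries (16607 to 18627). Epcam, Krt8, Krt18 and Krt19 were each lowest in control 1. Epcam ran from 6116 there to 20502 in ATM KO 3, and Krt19 from 2913 to 16219 in ATM KO 1. The part of any of these markers in the results was not tested.

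No member passed the test in ATM KO cells, and most lay lower by an amount within the spread between libraries. Of the 35, 30 had negative and 5 positive log2 fold changes, with a median of -0.31, where the median over all tested genes was -0.01 and 51.4% were negative. Without control 1 the median of the 35 was -0.05, with 22 negative and 13 positive. By limma, fitted over all tested genes with Benjamini-Hochberg adjustment, 0 of 35 had an adjusted p under 0.05, as did 0% of all genes, and the adjusted p of every member was 0.999. The edgeR and DESeq2 tests on recovered reads also called 0 of 35, where DESeq2 called 0.692% of all genes. An unadjusted p under 0.05 was found for 3 members by limma (Ddit3, Trib3 and Aldh18a1, all lower; 4.16% of all genes, and 1.39% lower), 3 by edgeR (4.3%) and 5 by DESeq2 (5.9%).

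Every ATM KO library lay below every control in 7 members, against 5.48% of all tested genes, and above every control in 1, against 5.7%. The 7 were Ddit3, Trib3, Cth, Psat1, Aldh18a1, Cars and Sars, and the 1 was Atf5. Only 2 of these 8 are synthetases.

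**Figure D1:**
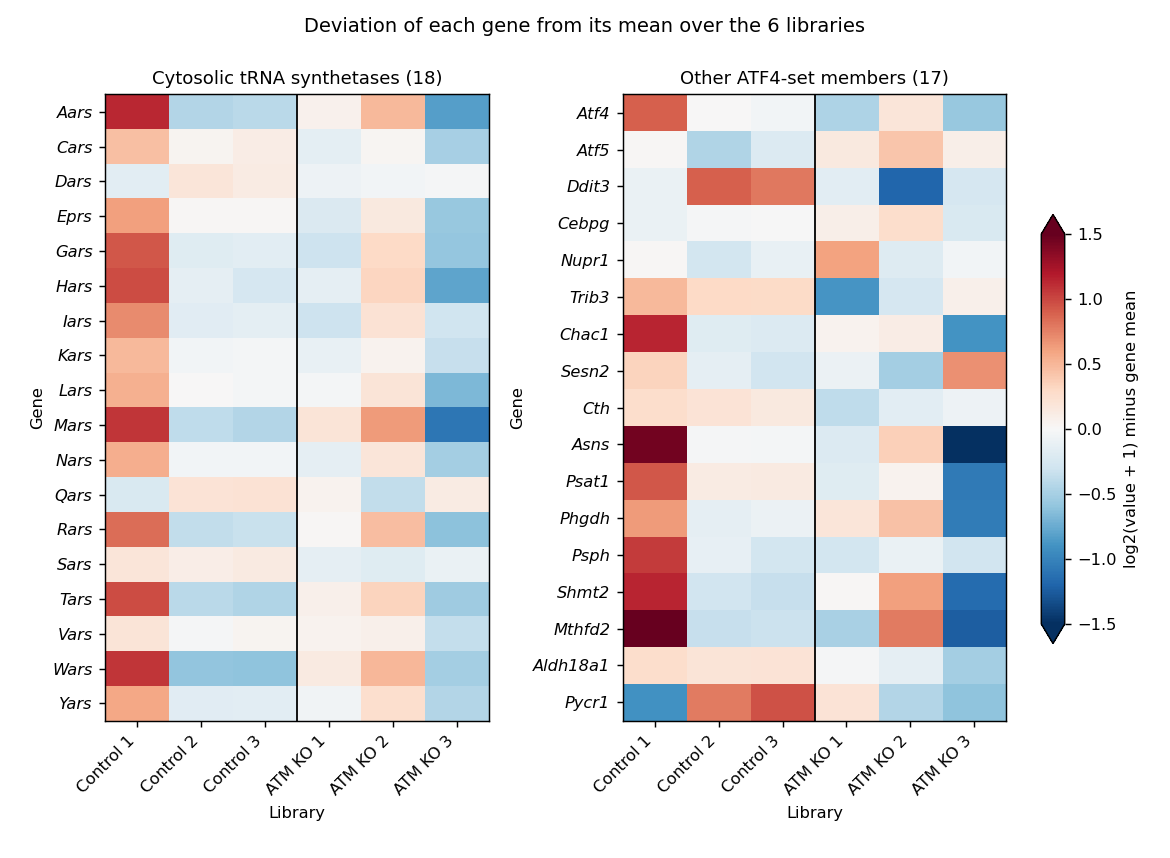
Heat map of the 35 members (rows) in the 6 libraries (columns), with the colour giving the log2(value + 1) of a gene minus its mean over the 6 libraries, saturated at 1.5 in both directions. Control 1 is red in most rows and ATM KO 3 blue, with exceptions such as Ddit3, Pycr1, Dars and Qars in control 1 and Sesn2 in ATM KO 3.

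The gene of ATF4 itself, Atf4 (ENSMUSG00000042406, chromosome 15, 80255184 to 80257541, plus strand, GRCm38), had values of 8498, 4573 and 4433 in control libraries 1 to 3. ATM KO libraries 1 to 3 had 3304, 5167 and 3073. Control 1 was far above the rest, and ATM KO 2 lay above controls 2 and 3, so the groups overlapped. Atf4 averaged 5834 ± 2308 (SD, n = 3) without and 3848 ± 1148 with the knockout (log2 fold change -0.57, SE 0.33, 95% interval -1.36 to 0.21). Without control 1 the log2 fold change was -0.27. ATF4 is controlled mainly by translation, so its mRNA is not a measure of its protein.

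Ddit3, which encodes the stress transcription factor CHOP, had the most negative fold change among the members. Its values were 288, 573 and 535 in the controls, in order, against 275, 135 and 259 after knockout. The groups did not overlap, but control 1 stood next to ATM KO 1 and well under the other controls. Ddit3 averaged 465 ± 155 and 223 ± 76.5 (log2 -1.06, SE 0.40; limma adjusted p = 0.999), and the log2 fold change was -1.38 without control 1. In GENCODE M21, 186 of the 1713 Ddit3 exon bases (10.9%) overlap exons of other entries. Mars, on the opposite strand, shares 68 of its exon bases with Ddit3. Such overlap was 15.1% in Aars and 10.4% in Psph. Whether counting used strand is not stated.

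Trib3, a pseudokinase that ATF4 and CHOP induce and that represses both, was even in controls and uneven in ATM KO cells. It had 1327, 1168 and 1159.9 in the controls, in order, against 513, 798 and 999.5 after knockout. All ATM KO libraries lay below all controls, with ATM KO 1 lowest. The means were 1218 ± 94.5 and 770.3 ± 244 (log2 -0.71, SE 0.27; limma adjusted p = 0.999). Unlike most members, Trib3 differed little between control 1 and the other controls, and its log2 fold change without control 1 was -0.65. Without ATM KO 1 it was -0.44.

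Atf5, a close relative of ATF4 that is itself a target of the response, lay on the other side. Its values were 272, 195 and 232 in controls against 296, 358 and 284 after knockout. Every ATM KO library stood above every control by a small margin (233 ± 38.5 against 313 ± 39.4; log2 0.43, SE 0.23), and limma gave an adjusted p of 0.999. Cebpg, a C/EBP partner of ATF4, stood at 1633 ± 55.5 and 1746 ± 293 and overlapped. Nupr1, a small stress-induced chromatin protein, stood at 1513 ± 151 and 1837 ± 568, with ATM KO 1 alone (2486) above all controls. Its log2 fold change was 0.00 without ATM KO 1 and 0.24 with it.

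**Figure D2:**
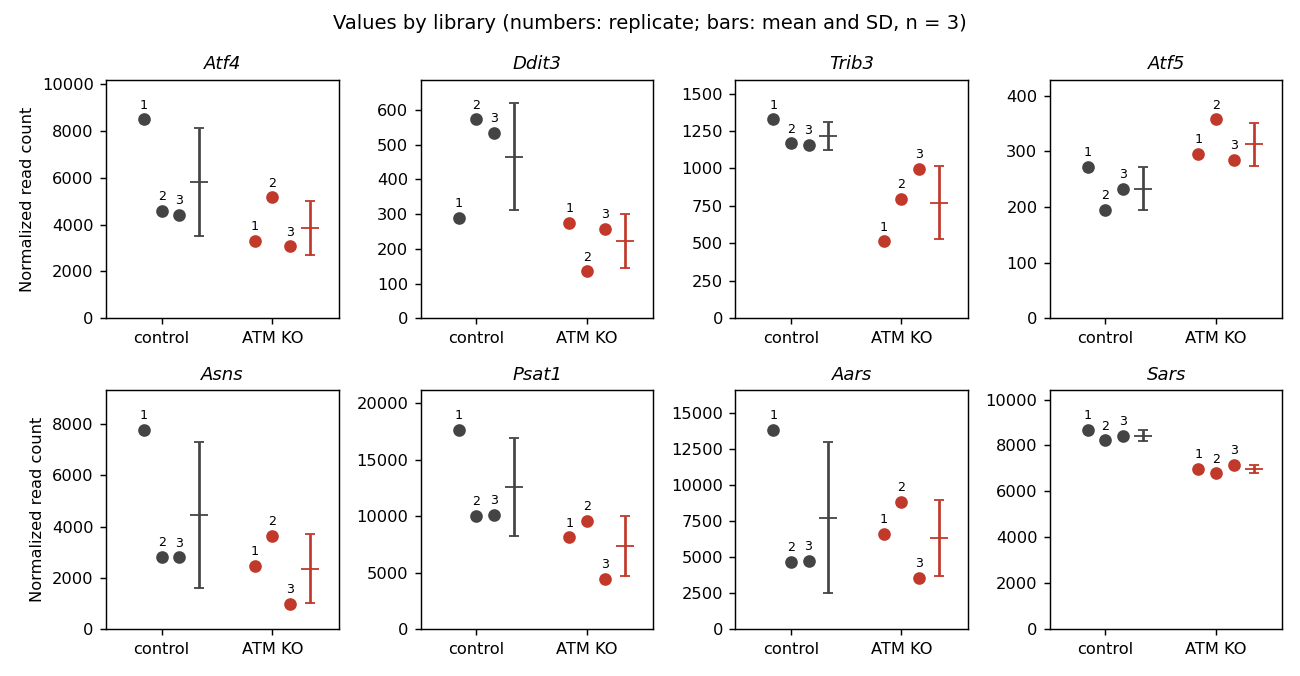
Normalized read counts of 8 members by library, with the replicate number over each point and the mean and SD of 3 libraries beside it; all axes start at 0. Sars and Trib3 show groups that lie apart, while in Atf4, Asns and Aars the groups overlap and control 1 and ATM KO 2 are the highest of their groups.

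Among the stress effectors, Cth, which encodes cystathionine gamma-lyase of cysteine synthesis, had close values within each group. They were 525, 502 and 482 in controls against 335, 393 and 416 after knockout (503 ± 21.6 against 381 ± 41.4; log2 -0.40, SE 0.19). The groups lay apart, with a limma adjusted p of 0.999. Chac1, which degrades glutathione, followed control 1 instead, at 772 there, 308 and 303 in controls 2 and 3, and 362, 377 and 187 after knockout, and its log2 fold change was -0.50 with all libraries, -0.05 without that control and -0.17 without ATM KO 3. Sesn2, an inhibitor of mTORC1 that senses leucine, was highest in ATM KO 3 (395) and lowest in ATM KO 2 (173), with controls at 310.4, 224 and 202.

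Genes of amino acid and one-carbon synthesis were all negative (8 of 8), with a median of -0.50, and 2 of 8 had groups apart. Their median was -0.23 without control 1, and 6 of 8 were negative. Asns, the asparagine synthetase gene (ENSMUSG00000029752, chromosome 6, 7675169 to 7693254, minus strand), had the largest ratio of highest to lowest library among the members (8.07). It stood at 7766, 2798 and 2792 in controls against 2470.0, 3643 and 962 after knockout. The highest library was a control and the lowest an ATM KO library, and ATM KO 2 lay above controls 2 and 3. Its log2 fold change of -0.94 had an SE of 0.61 and a 95% interval from -2.40 to 0.53, and it was -0.44 without control 1 and -0.39 without ATM KO 3.

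The serine pathway runs from Phgdh through Psat1 to Psph, and Shmt2 and Mthfd2 carry the one-carbon unit on in mitochondria. Psat1 stood at 17615, 10005 and 10103 in controls against 8107, 9541 and 4432 after knockout, with groups apart (log2 -0.79, SE 0.36; limma adjusted p = 0.999; -0.52 without control 1 and -0.46 without ATM KO 3). Phgdh, which commits glycolytic carbon to serine, overlapped, at 2270.1, 1333 and 1374 against 1656, 1981 and 708. The first and last steps did not share the separation seen for Psat1.

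Psph was at 1870.2 in control 1 and between 741 and 843 in the other 5 libraries, and its log2 fold change went from -0.44 to -0.02 without that control. Shmt2 stood at 13894, 5186 and 4987 in controls against 6416, 9707 and 2841 after knockout. Mthfd2 stood at 6103, 1584 and 1601 in controls against 1429, 3438 and 854 after knockout. Both were highest in control 1 and next highest in ATM KO 2, and without control 1 their log2 fold changes turned from -0.34 to 0.14 and from -0.63 to 0.02.

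The proline genes parted from this pattern. Aldh18a1, which makes the first intermediate of proline from glutamate, was even in controls at 4422, 4199 and 4229 and lower in all ATM KO libraries at 3628, 3337 and 2577. Its log2 fold change was -0.44 (SE 0.17; limma adjusted p = 0.999) and -0.42 without control 1. Pycr1, which completes proline in mitochondria, had 144, 465 and 525 in controls against 311, 199 and 178 after knockout. Control 1 was thus its lowest library, the reverse of Asns, and its log2 fold change was -0.56 (SE 0.54) with control 1 and -1.15 without it, but -0.30 without control 2 and -0.22 without control 3.

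The cytosolic tRNA synthetases were nearly all slightly negative, and none passed. Of 18, 17 had a negative log2 fold change, with a median of -0.22 and a range from -0.43 (Eprs) to 0.08 (Wars). Limma and edgeR gave 0 an unadjusted p under 0.05, and DESeq2 gave 1 (Sars, with an adjusted p of 0.421). Without control 1 the median was -0.06 and 11 of 18 were negative. Without ATM KO 3 it was -0.10.

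Sars, which charges tRNA with serine (ENSMUSG00000068739, chromosome 3, 108424865 to 108445209, minus strand), varied little within each group. It stood at 8665, 8216 and 8406 in controls against 6962, 6778 and 7159 after knockout. The groups lay apart and each was narrow, at 8429 ± 225 and 6967 ± 190.4. The log2 fold change was -0.27 (SE 0.12), with a limma adjusted p of 0.999, and it ranged from -0.29 to -0.24 over the alternatives run. Cars, the cysteine enzyme, also had groups apart, but by a thin margin, at 3072, 2315 and 2438 against 2039.6, 2300.5 and 1597 (log2 -0.40, SE 0.20; -0.26 without ATM KO 3).

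In most synthetases the highs and lows fell on the same libraries and the groups overlapped, but Sars and Cars had groups apart. In 16 of 18 the highest library was control 1, in 15 ATM KO 2 was the highest of the ATM KO libraries, and in 13 ATM KO 3 was the lowest of all. Over all tested genes these shares were 31.9%, 37.5% and 25.8%. Their median deviation was 0.59 in control 1, 0.21 in ATM KO 2, -0.07 in ATM KO 1, -0.09 in both control 2 and control 3 and -0.51 in ATM KO 3, the same order as on the first principal component. That order is a description of 6 libraries from which the component itself was computed.

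The spread was unequal among the synthetases. Wars, the tryptophan enzyme that interferon also induces, stood 3.17 times higher in control 1 than the mean of controls 2 and 3 (4268 against 1353 and 1342). Aars, the alanine enzyme, had 13782 in control 1 against 4628 and 4739.5, and 6563, 8790.2 and 3554 in ATM KO 1 to 3. Mars, the methionine enzyme, had 5638 against 2046 and 1967, and 3064, 4149 and 1258. These genes overlapped widely between the groups.

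Tars (threonine) had a ratio of control 1 to the other controls of 2.65, Rars (arginine) 2.29, Hars (histidine) 2.26 and Gars (glycine) 2.15. Iars (isoleucine) had a ratio of 1.82, Yars (tyrosine) 1.68, Eprs, the joined glutamate and proline enzyme, 1.51, Nars (asparagine) 1.5, Lars (leucine) 1.46, Kars (lysine) 1.43 and Cars 1.29. Lowest were Vars (valine) at 1.13, Sars at 1.04, Dars (aspartate) at 0.804 and Qars (glutamine) at 0.734. Qars had 7852, 10682 and 10714 in controls against 9575, 7160.4 and 10042 after knockout, so that its lows fell on control 1 and ATM KO 2, where Aars was high.

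The sign of a synthetase's fold change often hung on 1 library. Without control 1, the log2 fold changes of Aars, Mars, Rars, Tars, Iars and Yars turned positive (0.33, 0.33, 0.31, 0.39, 0.03 and 0.09), that of Wars was 0.63 and that of Hars was close to 0. Those of Sars (-0.25), Cars (-0.28), Eprs (-0.23), Dars (-0.20) and Qars (-0.28) stayed negative. Lars, Nars, Kars, Vars and Gars lay between -0.16 and -0.03.

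**Figure D3:**
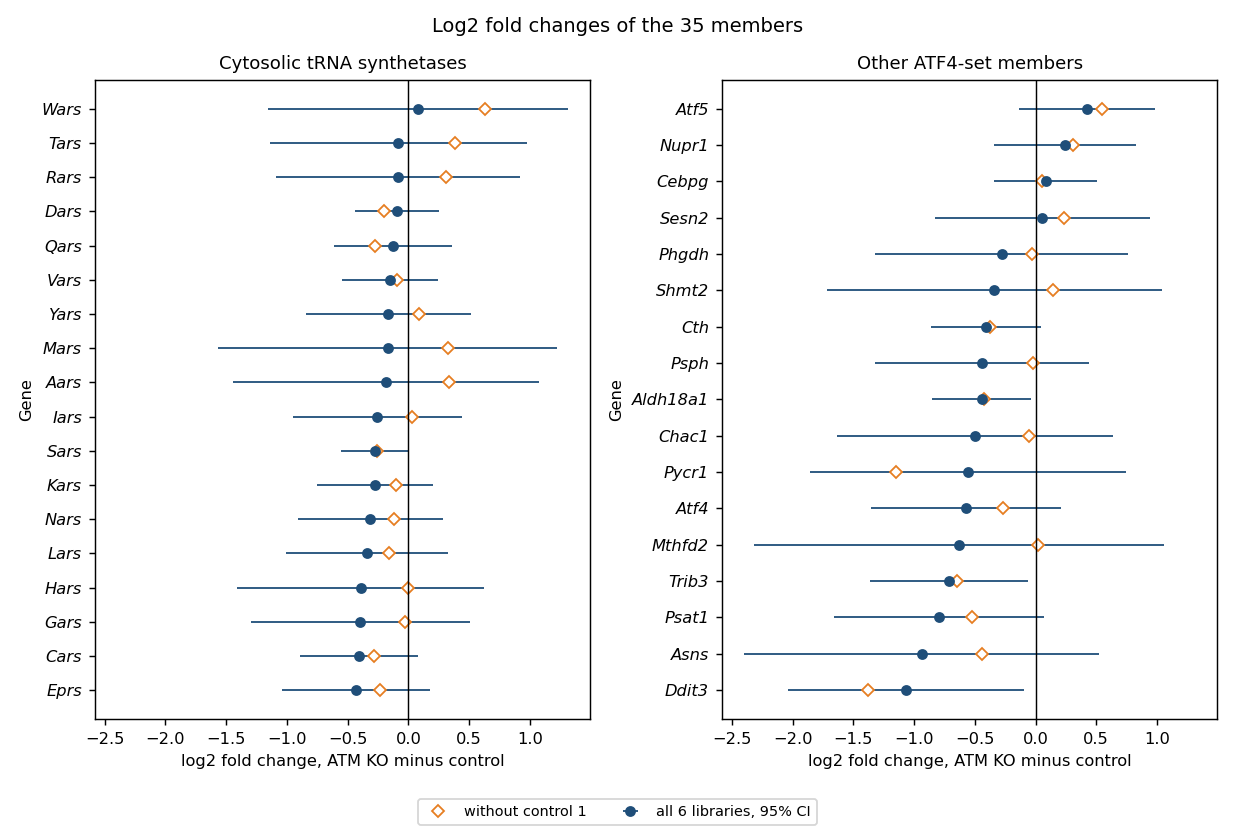
Log2 fold changes of the 35 members, ATM KO minus control, with 95% intervals from limma (filled circles, all 6 libraries) and the value without control 1 (open diamonds); the vertical line marks 0. All intervals but those of Ddit3, Trib3 and Aldh18a1 span 0, and the diamonds of Aars, Mars, Tars and Rars lie to the right of 0 while their circles lie to the left.

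Per kilobase of merged GENCODE M21 exon, the synthetase mRNAs of control cells ran from 396 normalized counts for Cars to 3825 for Vars. Vars, Kars (3050.2) and Gars (2766) had the highest levels per kilobase and Cars, Yars (445) and Wars (673) the lowest. Kars and Gars each encode both the cytosolic and the mitochondrial enzyme from 1 gene. Among the other members, Psat1 (2956), Shmt2 (2580.4) and Atf4 (2474) were highest per kilobase and Sesn2 (70.7), Pycr1 (96.1) and Atf5 (117) lowest. Merged exon length counts rare isoforms too, so levels of genes with long unused exons are understated.

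The synthetases stood less far below control than the other members, by an amount that depended on the libraries used. Median log2 fold changes were -0.22 over the 18 synthetases and -0.44 over the 17 other members, a difference of 0.22. The middle of the distributions ran from -0.33 to -0.13 for synthetases and from -0.63 to -0.28 for the others (quartiles). Without control 1 both medians were close to 0 (-0.06 and -0.05) and the difference was -0.01. These close medians hid unlike spreads. In that setting the synthetases ran from -0.28 (Cars) to 0.63 (Wars), with 11 negative and 7 positive. The other members ran from -1.38 (Ddit3) to 0.54 (Atf5), with 11 negative and 6 positive. With any other single library left out the difference was 0.17 to 0.22. Leaving out control 1 and ATM KO 2 together, a setting chosen after seeing the data, gave medians of -0.18 and -0.40 and a difference of 0.21. No test was made of this difference, since genes are not replicates.

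Within each library the medians of both sets lay close together. The synthetase median deviation minus that of the other members was 0.11, -0.07 and -0.05 in the controls, in order, against 0.03, 0.15 and 0.00 after knockout. These differences overlap between the groups. The regulators, in contrast, showed little common movement, with medians between -0.13 and 0.02 in the 6 libraries, where the synthesis enzymes ran from -1.05 in ATM KO 3 to 0.99 in control 1.

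**Figure D4:**
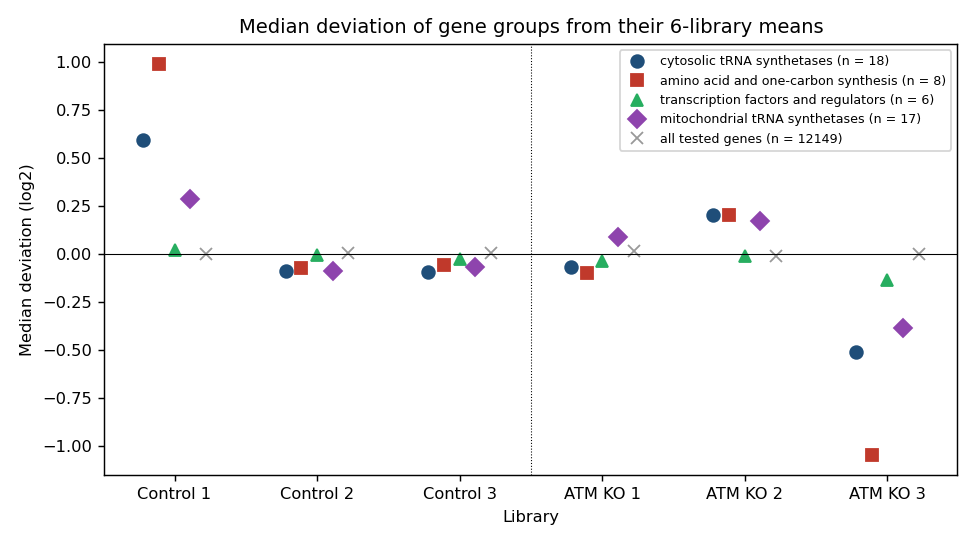
Median deviation, in log2 units, of 4 gene groups and of all tested genes from their means over the 6 libraries; the points of a library are spread sideways to keep them apart. The synthesis enzymes (squares) and cytosolic synthetases (circles) are highest in control 1 and lowest in ATM KO 3, the mitochondrial synthetases (diamonds) take the same ends less far, and all genes (crosses) stay close to 0.

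Upstream of ATF4, the eIF2 kinases, eIF2B subunits and phosphatase cofactors had 5 positive and 9 negative of 14 and a median of -0.03, with 0 called by limma, edgeR or DESeq2 and 0 with an unadjusted p under 0.05 by any of them. The list had a median of 0.23 without control 1, with 12 positive and 2 negative. The GCN2 partner Gcn1l1 stood at 9393 ± 1802 and 8597 ± 1866 and the eIF2 alpha subunit Eif2s1 at 5097 ± 2468 and 4668 ± 1463. Ppp1r15b, a cofactor that directs eIF2 dephosphorylation, stood at 5335 ± 1308 and 5228 ± 982. These 3, named for the highest means in their list, overlapped between the groups.

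Amino acid transporters of the response had 2 positive and 6 negative of 8 tested, with a median of -0.27, and 0 were called by limma, edgeR or DESeq2. The median of this list was 0.21 without control 1, with 6 positive and 2 negative. Slc38a2, the neutral amino acid transporter SNAT2, and Slc6a9, a glycine transporter, were the positive ones with all libraries (0.59 and 0.23). Slc38a2 stood at 10442, 7203 and 7078 in controls against 10453, 13093 and 13354 after knockout, every ATM KO library above every control, ATM KO 1 by a narrow margin. Its log2 fold change was 0.59 (SE 0.20; limma adjusted p = 0.999).

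Slc7a5, the large neutral amino acid transporter LAT1, followed the synthetases, at 17598, 6266 and 6382 in controls against 6174, 8012 and 5219 after knockout. The cationic transporter Slc7a1 stood at 11494, 4851 and 4868 and at 5393, 8288 and 4852. Both were highest in control 1, with log2 fold changes of -0.48 and -0.11 that were 0.01 and 0.31 without it.

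Of 22 further ATF4 or CHOP targets, 15 were tested, 4 positive and 11 negative with a median of -0.19, and 0 were called by limma, edgeR or DESeq2, with 1 at an unadjusted p under 0.05 by each. Every ATM KO library lay below every control in 2 of the 15 and above in 0, against 5.48% and 5.7% of all tested genes. The median of this list stayed at -0.20 without control 1, with 6 positive and 9 negative. Its most abundant members ran against the synthetases. The mTORC1 inhibitor Ddit4 had 2674 in control 1 and 4498 in ATM KO 2, against 13188 to 21293 in the other 4 libraries. Ero1l, an oxidase of the endoplasmic reticulum that hypoxia also induces, had 3607 and 5767 in those libraries and 12275 to 44453 elsewhere. The autophagy receptor Sqstm1 stood at 12746 ± 3319 and 13146 ± 2125.

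Partners of the synthetases had small negative values that turned with 1 library. The 7 genes of this list, the phenylalanine enzyme subunits Farsa and Farsb, the scaffold genes Aimp1, Aimp2 and Eef1e1 of the multisynthetase complex, and the mitochondrial enzymes Pars2 and Ears2, were all negative, with a median of -0.09, and 5 were highest in control 1. Their median was 0.11 without control 1, with 5 positive and 2 negative. Farsa stood at 2891 ± 1958 and 2577 ± 932, Farsb at 2335 ± 683 and 2148 ± 632 and Aimp1 at 2306 ± 446 and 1798 ± 29.2. In Aimp1 alone among the 7 the groups lay apart, and 0 were called by limma, edgeR or DESeq2, with 0 at an unadjusted p under 0.05.

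The mitochondrial tRNA synthetases, encoded by separate genes, had 5 positive and 12 negative of 17 and a median of -0.08, and 0 were called by limma, edgeR or DESeq2, with 0 at an unadjusted p under 0.05. Leaving out control 1 gave a median of 0.04, with 9 positive and 8 negative. In 9 of 17 control 1 was highest, against 16 of 18 cytosolic enzymes. Lars2 stood at 7001 ± 2119 and 5471 ± 784 and Iars2 at 6246 ± 1373 and 4762 ± 549. Pars2 and Ears2 are also in the list of synthetase partners, and Iars2 and Nars2 in that of further ATF4 or CHOP targets. The difference between cytosolic and mitochondrial enzymes was not tested.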

How the data were processed

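RNA-seq of 6 libraries was used, 3 per group, as their titles name them. The deposited files hold a normalized signal for each gene, read counts scaled by a library-wide factor; this was read from the values themselves, since 100% are whole multiples of 1 step within 0.01 reads. Tools listed in the submitters' processing notes, without roles, are DESeq2, HTSeq, STAR, SAMtools, cutadapt and Trim Galore, with builds mm9 and GRCm38; strand use and the rule by which genes were listed are not given in the sources used here. Genes with a mean of at least 10 (12149 of 13405) were tested with limma 3.58.1 in R 4.3.3 on log2(value + 1), with a mean-variance trend, 2-sided, Benjamini-Hochberg over all tested genes, threshold 0.05. A log2(value + 1) difference understates changes of low genes. Alternatives were edgeR 4.0.16 and DESeq2 1.42.0 on the recovered reads, TMM scaling, a pseudocount of 10, no filter, a mean of at least 50, a replicate block and each library left out. The fits were tested on simulated data. Coordinates and exon lengths are from GENCODE M21 (GRCm38), which holds 98.8% of the gene IDs, and promoters from RefSeq (GRCm38.p6). Members and lists were chosen with earlier results of these data known, and no set test was made. All 35 members are reported, and from each other list up to 4 that passed the threshold or, where none did, the 3 with the highest means; further ones named were chosen after their values were seen. A result that this rule would name is not reported here.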

Additional observations from a re-analysis of the deposited data

How the results depend on the processing

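No member was called under any of the 14 alternatives (0 of 35 in each), and the lowest adjusted p of a member in any of them was 0.149, without control 1 and ATM KO 2 (a setting chosen after seeing the data). In 22 of 35 members, 10 of them synthetases, the sign held throughout. With libraries left out, the synthetase median ranged from -0.40 to -0.060, that of the other members from -0.60 to -0.052, and their difference from -0.0084 to 0.22, each nearest to 0 without control 1. The 13 log2 fold changes that turned had these ranges with libraries left out: Aars -0.47 to 0.33, Mars -0.53 to 0.33, Rars -0.34 to 0.31, Tars -0.33 to 0.39, Yars -0.33 to 0.085, Iars -0.43 to 0.033, Qars -0.28 to 0.023, Wars -0.20 to 0.63, Shmt2 -0.74 to 0.15, Mthfd2 -1.17 to 0.018, Phgdh -0.57 to 0.17, Sesn2 -0.27 to 0.50 and Cebpg -0.056 to 0.22. Without control 1, 8 turned, as did 8 without ATM KO 3. Wars was -0.093 by edgeR and -0.092 by DESeq2. Why they turned was not tested.

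Libraries with the same replicate number did not all deviate together (correlations of -0.02, -0.58 and 0.53 for numbers 1 to 3). The highest correlation, 0.61, was between control 1 and ATM KO 2. The numbers were therefore not taken as pairs. With the replicate block the number of called members stayed 0, the medians were -0.22 and -0.44 and their difference 0.22.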

Other observations

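The XBP1 and ATF6 arms of the unfolded protein response, which act beside PERK and do not need ATF4, had 3 positive and 11 negative of 14 tested genes and a median log2 fold change of -0.15, with 0 called by limma, edgeR or DESeq2 and 1 with an unadjusted p under 0.05 by each. The median was -0.08 without control 1, with 6 positive and 8 negative. The chaperone gene Hspa5 averaged 29285 ± 6251 without and 26562 ± 6329 with the knockout (SD, n = 3), Hsp90b1 at 31631 ± 8484 and 26688 ± 3200.3, and Pdia4 at 5609 ± 1827 and 5826 ± 732. Herpud1, a component of endoplasmic reticulum degradation that ATF4 also induces, was the 1 gene of the list with groups apart, at 1459, 1368 and 1318 in controls against 1058, 695 and 1111 after knockout (log2 -0.56, SE 0.22).

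Of 8 further serine and one-carbon genes tested, 3 were positive and 5 negative, with a median of -0.07 and 0 called by limma, edgeR or DESeq2 (1 with an unadjusted p under 0.05 by each). Leaving out control 1 gave a median of 0.12, with 7 positive and 1 negative. Mthfd1l, the mitochondrial formate-producing enzyme that acts after MTHFD2, stood at 5123, 8348 and 8522 in controls against 4273, 4000.4 and 5357 after knockout (log2 -0.66, SE 0.24), with control 1 inside the ATM KO range. This gene also belongs to the list of further ATF4 or CHOP targets, so it is counted in both lists. Its neighbour in the pathway, Mthfd2, was highest in control 1, where Mthfd1l had its lowest control value. The cytosolic enzymes Mthfd1 and Shmt1 stood at 5654 ± 1939 and 4964 ± 2483 and at 1464 ± 789 and 1364 ± 672.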
